A study of Mus musculus with 10 samples.

Results

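The platelet-derived growth factor (PDGF) family was followed through 10 mouse tumors by the 4 ligand genes *Pdgfa*, *Pdgfb*, *Pdgfc* and *Pdgfd* and the 2 receptor genes *Pdgfra* and *Pdgfrb*. Members were chosen by name, as every non-control array probe whose gene name was that of a ligand or receptor, and not by any measured value. The 6 genes, of 19272 named genes, had 12 probes, of 40196 probes in the deposited table, and all 12 were measured on all 10 arrays.

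RNA of each tumor was measured on 1 Agilent mouse array with a red and a green channel, and 5 tumors labelled as sarcomatoid were compared with 5 labelled as adenocarcinoma. A sarcomatoid carcinoma is a carcinoma whose cells take a spindle, mesenchymal shape, while an adenocarcinoma keeps glandular structure. The sarcomatoid group held the mammary tumors 323, 307 and 594 and the lung tumors 323 and 307, which per the methods grew after tail vein injection of cell lines made from the mammary tumors, so that it has 3 origins and not 5. Tumor 594 is labelled sarcomatoid carcinoma and the other 4 sarcomatoid adenocarcinoma. The adenocarcinomas 105, 131, 470, 17 and 85 were all from the mammary gland.

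The mammary tumors arose in mice that carried MMTV-Cre, and per the methods the compound mutants were on a C57BL/6 background. MMTV-Cre is a transgene that drives recombination in mammary epithelium. The 5 adenocarcinomas carried Pik3caH1047R and Trp53R270H, an activating mutation of a lipid kinase and a hot spot mutation of a tumor suppressor. Of the 3 sarcomatoid origins, 1 carried both of these alleles, 1 carried Pik3caH1047R with a spontaneous Trp53R245H mutation, and 1 carried Trp53R270H without Pik3caH1047R. The first 2 of these gave the lung tumors, and the sources used here do not say which was tumor 323 and which tumor 307. The study describes C57BL/6 hosts for its later tail vein assays, while the hosts of these lung tumors and the ages of the mice are not given for these samples in the sources used here. Genotype therefore differed within the sarcomatoid group, and 2 of its 3 origins, with 3 of 5 arrays, differed in genotype from the adenocarcinomas. The part of genotype in any difference was not tested.

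PDGF ligands are secreted dimers that bring together receptor tyrosine kinases on the cell surface. PDGF-A and PDGF-B leave the cell already cut by furin-like proteases, while PDGF-C and PDGF-D are secreted in a latent form whose CUB domain is cut off outside the cell. The alpha receptor binds PDGF-A, PDGF-B and PDGF-C, and the beta receptor binds PDGF-B and PDGF-D. In the mammary gland and its tumors the ligands are known mostly from epithelial, endothelial and myeloid cells, the alpha receptor from fibroblasts and fat progenitors, and the beta receptor from pericytes and fibroblasts. A tumor piece holds all of these, and on bulk RNA fewer cells of a type and less RNA per cell cannot be told apart.

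Values are log2 ratios of tumor over a common reference RNA, and the probe with the highest signal stands for a gene unless another is named. The direction is likely and not certain. The labels name Cy3, the green dye, for the tumor, but every deposited column tracked the red over green ratio of the array it belongs to, with r between 0.866 and 0.926 over probes, and the green signal varied less between arrays than the red (mean SD 0.737 against 0.975 on the log2 scale), as a shared reference would. Red was read as the tumor. The study's text names no dye, and for the following genes the directions it reports are those of this reading. The study reports *Krt18* and *Epcam* as lower and *Plau*, *Mrc1* and *Itgam* as higher in the sarcomatoid group. With red as the tumor these differed by -3.32, -2.86, 2.68, 1.71 and 1.61, sarcomatoid minus adenocarcinoma. The study used the same arrays, so this is no separate check of the dyes. If the dye label holds, the sign of every value below turns. Because each probe binds with its own strength, levels were compared between tumors and never between genes.

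Arrays had 52.2% to 83.0% of probes well above background in the tumor channel. They were read with 3 versions of the scanner software's protocol, called scan batches here. Batch 1 held mammary tumor 323 alone, batch 2 held tumors 307, 594, 105 and 470, and batch 3 held both lung tumors with 131, 17 and 85. Adenocarcinoma 470 stood apart from the other adenocarcinomas. The mean log2 ratio of 10 epithelial genes, such as *Epcam* and *Krt18*, was -1.51 in it against 2.80 to 3.14 in the others, so epithelial defining markers were low in a tumor labelled adenocarcinoma. Values without it are given where it moved them most. That choice was made on the values themselves, so p-values without tumor 470 are descriptions and not tests.

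Between sarcomatoid carcinoma and adenocarcinoma no member passed the test. Of 12 member probes 0 had an adjusted p below 0.05 in limma with Benjamini-Hochberg adjustment, where the share over all probes was 0%. At an unadjusted p below 0.05 the members again counted 0 of 12, against 9.23% of all probes. The groups overlapped for all 12 probes, and 1.33% of all probes had groups that did not overlap. In 10 of 12 probes the sarcomatoid mean was the higher, against 49.8% of all probes, and the median difference was 0.44 over the member probes and -0.0017 over all probes. The members were few and several share a gene, so that count carries no test.

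**Figure D1:**
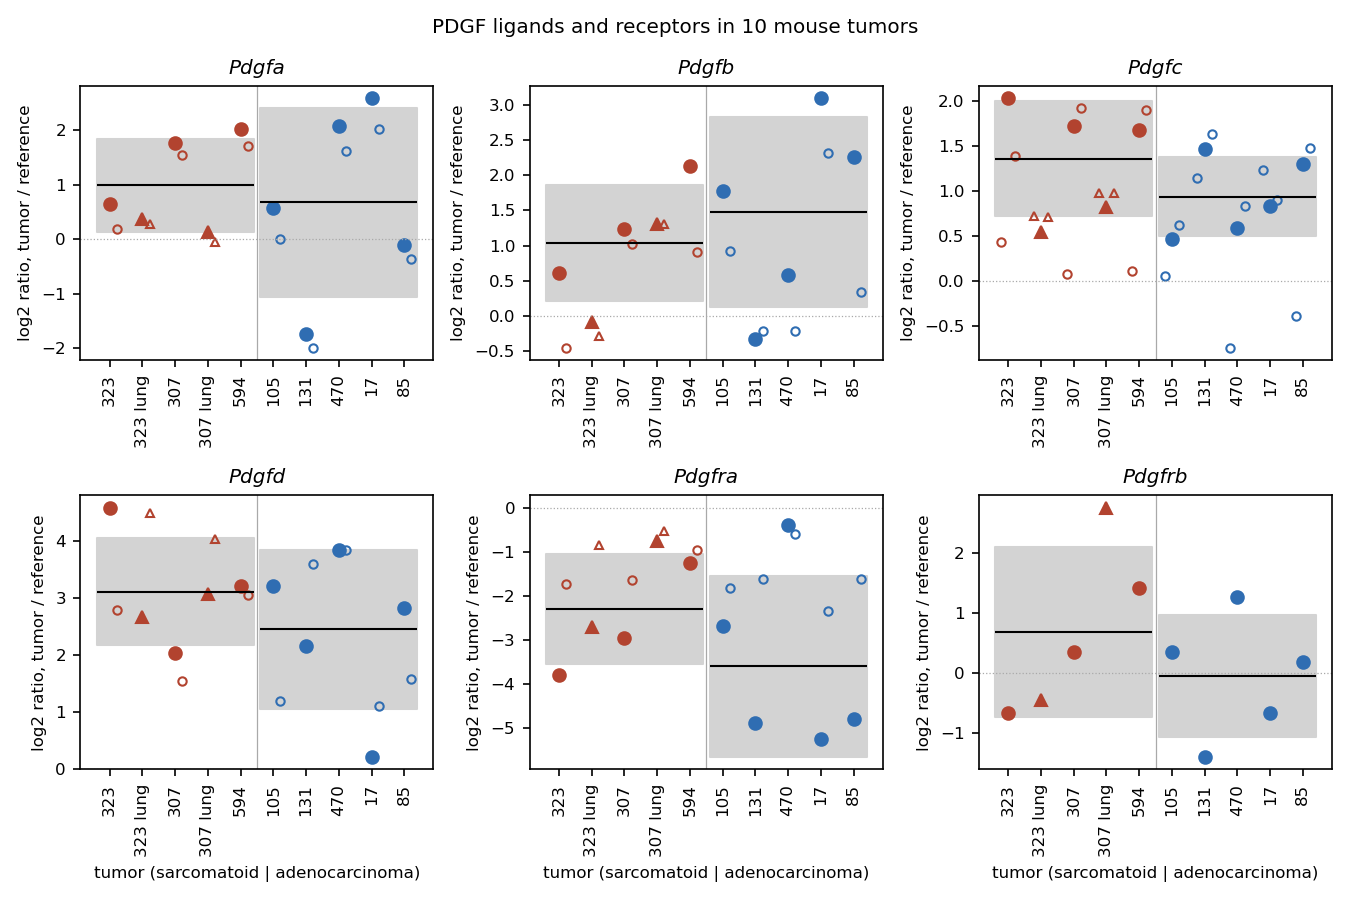
Log2 ratio of tumor over reference (vertical axis) of every probe of the 6 PDGF genes in each tumor (horizontal axis), sarcomatoid in red, adenocarcinoma in blue, lung tumors as triangles. Filled symbols are the probe that stands for the gene, open symbols its other probes, black lines the group means and grey bands 1 SD of the standing probe, n = 5. The bands of the groups overlap in every panel, and adenocarcinoma 470 is the highest tumor for Pdgfra at -0.39.

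*Pdgfa*, the short-range ligand of the alpha receptor, varied over 4.33 log2 units between tumors and this spread lay mostly inside the adenocarcinomas. Its probe A_51_P370090 (chromosome 5, 137949185 to 137949244, build mm7) read 0.64 in mammary tumor 323, 0.38 in its lung tumor, 1.77 in mammary tumor 307, 0.14 in its lung tumor and 2.03 in tumor 594. The adenocarcinomas read 0.57 in tumor 105, -1.75 in 131, 2.08 in 470, 2.59 in 17 and -0.12 in 85. Both the highest and the lowest tumor were adenocarcinomas. The sarcomatoid mean was 0.99 ± 0.86 and the adenocarcinoma mean 0.67 ± 1.74 (SD, n = 5 each), a difference of 0.32 with a standard error (SE) of 0.74 and an adjusted p of 0.932. A second probe, A_51_P370099 (137951288 to 137951347), followed it closely (r = 0.993 over 10 tumors, which share arrays) and gave a difference of 0.48. The direction rested on tumor 131: without it the differences were -0.29 and -0.081. Within scan batch 2 the standing probe differed by 0.58 and within batch 3 by 0.014.

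*Pdgfb*, which binds both receptors and recruits pericytes to vessels, was the 1 gene whose standing probe was lower in the sarcomatoid group. Probe A_52_P618427 (chromosome 15, 80080029 to 80080088) read 0.62, -0.08, 1.23, 1.30 and 2.13 in mammary 323, lung 323, mammary 307, lung 307 and 594. In adenocarcinomas 105, 131, 470, 17 and 85 it read 1.78, -0.32, 0.58, 3.09 and 2.25. Tumor 17 was the highest and tumor 131 the lowest, as for *Pdgfa*. The means were 1.04 ± 0.83 and 1.48 ± 1.35 (SD, n = 5 each), and the difference of -0.44 (SE 0.61) had an adjusted p of 0.879. The other probe, A_51_P175262 (80080840 to 80080899), correlated with it at 0.814 and differed by -0.13. Within scan batch 2 both differences turned, to 0.50 and 0.62, and within batch 3 they were -1.06 and -0.30.

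*Pdgfc*, a ligand of the alpha receptor that needs cutting by a protease, was the gene with the least spread, 1.56 log2 units for probe A_52_P376360 (chromosome 3, 81318473 to 81318532). All 10 tumors were above the reference. The sarcomatoid mammary tumors read 2.03 (323), 1.72 (307) and 1.68 (594), and the lung tumors 0.55 (323) and 0.83 (307). Adenocarcinomas 105, 131, 470, 17 and 85 read 0.47, 1.47, 0.59, 0.84 and 1.31. The 3 mammary sarcomatoid tumors were the 3 highest of the 10, while the lung tumors lay among the adenocarcinomas. Over the whole groups the difference was 0.43 (SE 0.34, 95% confidence interval -0.32 to 1.17, adjusted p 0.754). It was 1.17 within scan batch 2, where the sarcomatoid tumors were both mammary, and -0.52 within batch 3, where both were lung tumors.

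A second *Pdgfc* probe, A_51_P333839 (81318320 to 81318379), lies close by, correlated with the first at 0.887 and differed by 0.29. The third, A_52_P408629 (81315283 to 81315342), was not well above background in the tumor channel on any sarcomatoid array and was so on 2 of 5 adenocarcinoma arrays (131 and 470). It correlated with the others at -0.086 and 0.0078, and its difference is not read as a fold.

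*Pdgfd*, the latent ligand of the beta receptor, was above the reference in every tumor. Probe A_52_P636948 (chromosome 9, 6336473 to 6336532) read 4.58, 2.67, 2.04, 3.06 and 3.21 in mammary 323, lung 323, mammary 307, lung 307 and 594, and 3.20, 2.16, 3.84, 0.22 and 2.83 in adenocarcinomas 105, 131, 470, 17 and 85. Tumor 17, the highest for *Pdgfa* and *Pdgfb*, was the lowest here. The difference between groups was 0.66 (SE 0.65, adjusted p 0.800), with -0.90 within scan batch 2 and 1.13 within batch 3. Probe A_52_P264790 (6334682 to 6334741) read 2.79, 4.48, 1.54, 4.03 and 3.05 against 1.19, 3.59, 3.84, 1.11 and 1.58, and the pair correlated at 0.404. The reference channel was well above background on 5 of 10 arrays for the first probe and on 0 of 10 for the second, and the tumor channel of the second was so in 3 of 5 adenocarcinomas. How far *Pdgfd* exceeded the reference is therefore not fixed in size, and differences of the second probe are not read as folds.

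*Pdgfra* had the widest range of all members, 4.88 log2 units, and the SD of its standing probe over the 10 tumors was at the 98.0th percentile of all probes. It was below the reference in every tumor. Probe A_51_P345649 (chromosome 5, 74616116 to 74616175) read -3.81 (323), -2.71 (323 lung), -2.95 (307), -0.76 (307 lung) and -1.25 (594). The adenocarcinomas read -2.68 (105), -4.89 (131), -0.39 (470), -5.26 (17) and -4.80 (85). The 3 lowest tumors were adenocarcinomas, and so was the highest. Those 3 lowest were the adenocarcinomas of scan batch 3, while 105 and 470 were those of batch 2. The part of the batch in this split was not tested. The probe was spotted 10 times on each array, and the SD over those spots was 0.045 to 0.224, which covers spot noise within an array and neither preparation nor batch.

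The sarcomatoid mean of *Pdgfra* was -2.30 ± 1.26 and the adenocarcinoma mean -3.61 ± 2.06 (SD, n = 5 each). The difference of 1.31 was the largest of the 12 probes, a 2.48-fold higher sarcomatoid level, with an SE of 0.91, a 95% confidence interval of -0.67 to 3.29 and an adjusted p of 0.706. A second probe, A_52_P264283 (74581841 to 74581900), correlated with it at 0.854 but spanned 1.82 log2 units, and gave 0.46 (adjusted p 0.740). In tumors 17 and 85 that probe was not well above background.

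The *Pdgfra* result differed without tumor 470 and between scan batches, which are not separate checks, since 470 is 1 of 2 adenocarcinomas of batch 2. Without tumor 470 the difference was 2.11 (SE 0.68, adjusted p 0.169), and the second probe gave 0.72 (adjusted p 0.350). These were the 2 of 12 member probes at an unadjusted p below 0.05 in that fit, where 14.2% of all probes were, and 0 of 12 passed the adjusted threshold that 1.54% of all probes passed. Within scan batch 2, tumors 307 and 594 against 105 and 470, the difference was -0.57. Its sign rested on tumor 470, at -0.39, while tumor 105, at -2.68, lay between 307 and 594, at -2.95 and -1.25. Within batch 3, both lung tumors against 131, 17 and 85, it was 3.25.

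*Pdgfrb* spread over 4.15 log2 units, and its probe A_51_P150964 is on chromosome 18 (61474380 to 61474439). It read -0.67 (323), -0.45 (323 lung), 0.35 (307), 2.75 (307 lung) and 1.42 (594) in the sarcomatoid tumors. In the adenocarcinomas it read 0.35 (105), -1.40 (131), 1.27 (470), -0.67 (17) and 0.18 (85). Lung tumor 307 stood highest, and the groups overlapped over most of their range. The means were 0.68 ± 1.42 and -0.05 ± 1.02 (SD, n = 5 each), a difference of 0.74 (SE 0.67, 95% confidence interval -0.73 to 2.20, adjusted p 0.785). The difference was 0.077 within batch 2, 1.78 within batch 3 and 1.07 without tumor 470 (adjusted p 0.530). It kept its sign under all 23 alternatives tried, the only one of the 12 probes to do so in this comparison.

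**Figure D2:**
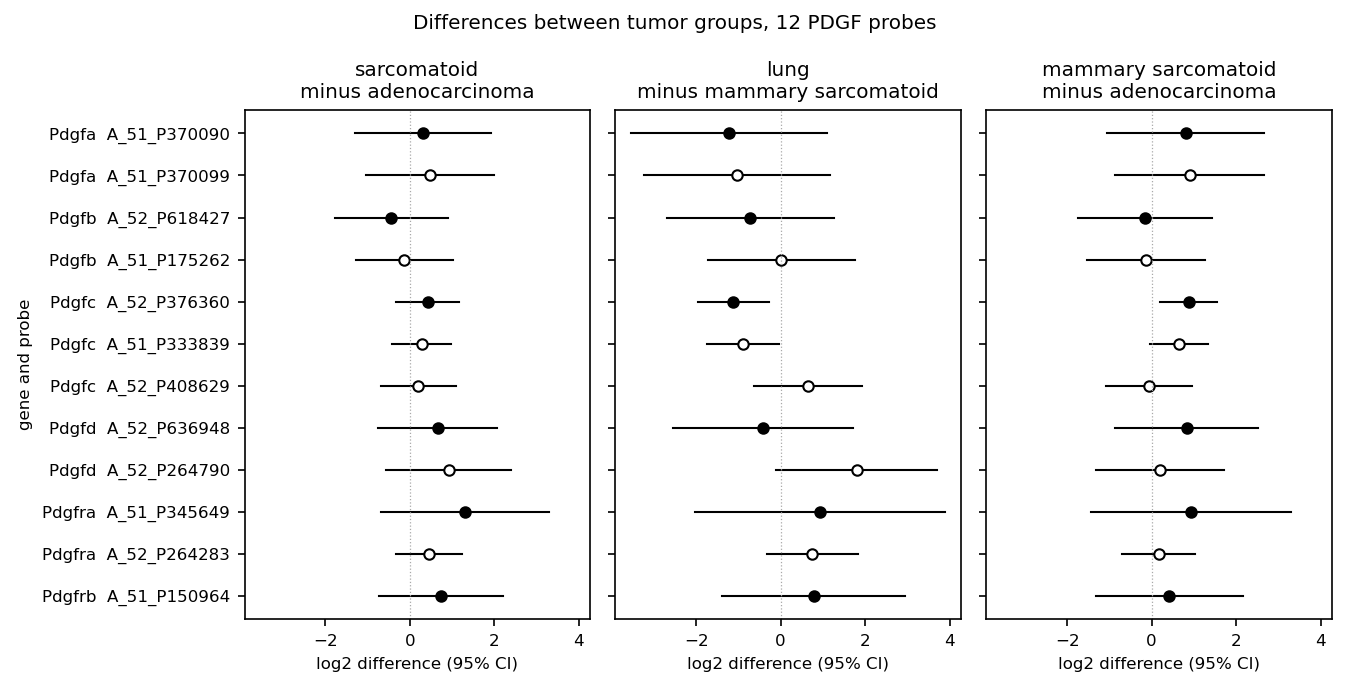
Log2 difference (horizontal axis) with its 95% confidence interval from limma for the 12 PDGF probes (vertical axis) in 3 comparisons. Filled points stand for the gene, open points are other probes. All 12 intervals of sarcomatoid minus adenocarcinoma contain 0, and the Pdgfc probe A_52_P376360 lies off 0 in the other comparisons at -1.12 and 0.87.

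The exact permutation test gave the same picture for single probes. Of the 12 probes 0 had a two-sided p below 0.05 with all 252 splits of the arrays, and the smallest p of a member was 0.238, for *Pdgfc*, where this design can reach 0.00794. With lung and mammary tumors of a number averaged to 1 value, 3 against 5, there were 56 splits. *Pdgfra* and *Pdgfrb* each had an exact p of 0.286 in that test.

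The receptors varied together from tumor to tumor, with a Pearson r of 0.835 over the 10 tumors, which is a description of values that share arrays. Among the adenocarcinomas both receptors were higher in 105 and 470, of scan batch 2, than in 131, 17 and 85, of batch 3. Tumor and batch cannot be told apart there. The pair of ligands *Pdgfa* and *Pdgfb* had r = 0.558. *Pdgfc* followed neither receptor, at -0.28 with *Pdgfra* and -0.23 with *Pdgfrb*. *Pdgfra* and *Pdgfd* had r = 0.524.

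The mean of the fibroblast markers ran alongside *Pdgfra*, while single genes did not all do so. The mean log2 ratio of 10 fibroblast genes, among them *Col1a1*, *Dcn* and *Pdpn*, was 2.73 in tumor 470, 1.90 in lung tumor 307, 2.09 in 594 and 1.29 in 105, the 4 tumors with the highest *Pdgfra*. In 85, 131 and 17, the 3 lowest, it was -0.83, -1.33 and -1.10. In between it was 0.98 in 307, 0.68 in 323 and -0.51 in lung tumor 323. Among the single genes, *Pdpn* was -1.24 in lung tumor 307 and -1.08 in 105, against 1.59 in mammary tumor 307. *Dcn* was 1.77 in lung tumor 323 and -0.006 in 594. Of these 10 genes, 9 were well above background on all arrays, and the list mean ranged from -0.51 to 2.09 in the sarcomatoid and from -1.33 to 2.73 in the adenocarcinoma group. In the adenocarcinomas it split by scan batch as the receptors did, and the part of the batch was not tested.

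Markers of other tissue components also differed between these tumors. The mean of 6 skeletal muscle genes was 5.13 in tumor 105, 3.56 in 470 and 2.87 in 594 and at most 1.05 in the other tumors. That of 8 pericyte genes, with *Rgs5*, *Cspg4* and *Des*, was 3.04, 2.36 and 2.58 in the same tumors, 2.33 in lung tumor 307, and 0.56 to 2.02 elsewhere. Its genes did not all follow this mean. *Rgs5* was highest in mammary tumor 323, at 5.93, and *Cspg4* was -0.38 in tumor 470. *Des* was highest in tumors 105, 470 and 594, at 3.54, 1.13 and 0.95, the same tumors as for the muscle genes. Epithelial genes were lowest in lung tumors 307 and 323 and in tumor 470, at -2.41, -1.61 and -1.51. The part of any of these in the receptor values was not tested.

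**Figure D3:**
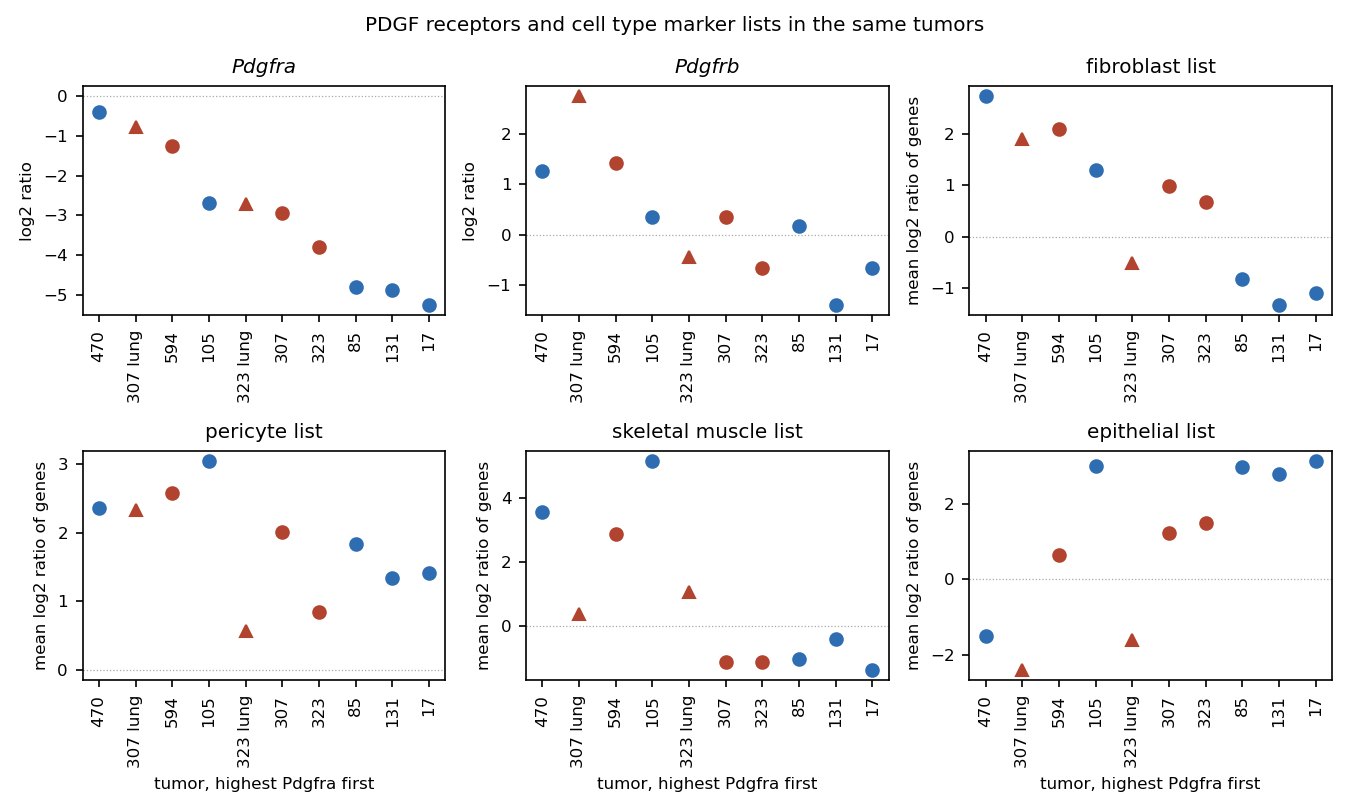
Log2 ratio of tumor over reference of both PDGF receptors and mean log2 ratio of 4 marker lists (vertical axes) in the 10 tumors (horizontal axis), ordered from the highest to the lowest Pdgfra. Sarcomatoid tumors are red, adenocarcinomas blue and lung tumors triangles. The fibroblast list falls with Pdgfra, from 2.73 in tumor 470 to -1.10 in tumor 17, and the epithelial list lies near 3 in 4 of 5 adenocarcinomas.

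Among 9608 probes that were well above background on all arrays and varied between tumors, those most like each member were found by Pearson r over the 10 tumors. For *Pdgfra* they were *Tal1* (0.970), *Chst1* (0.967) and *Lrp1* (0.959), the last a co-receptor on the list of PDGF binding genes below. For *Pdgfrb* they were *Adam19* (0.955), *Pofut2* (0.948) and *Fbln5* (0.940), which encodes an elastic fibre protein. For *Pdgfa* they were *Tnpo1* (0.919), *Haus6* (0.905) and *Ranbp1* (0.905), and for *Pdgfb* *Hes1* (0.937), *Slc25a25* (0.918) and *Rdm1* (0.910). For *Pdgfc* they were *Zfp386* (0.889), *Mrps33* (0.888) and *2210418O10Rik* (0.886), and for *Pdgfd* *Mbnl2* (0.930), *Meox2* (0.882) and *Folr2* (0.875). With 10 tumors and this many probes, high values arise in any such search.

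Growth of lines from the same tumors in the lung allowed a comparison by site, of the lung with the mammary sarcomatoid tumors. The lung tumors had also passed through culture and injection into a host mouse, while the mammary tumors were primary. Site cannot be told apart from these steps here. Of 12 member probes 0 passed the adjusted threshold, which 0.0249% of all probes passed. At an unadjusted p below 0.05 there were 2 of 12 in either direction, where 4294 of 40196 probes were. Both were lower in the lung and both were of *Pdgfc*, and 5.1% of all probes were lower at that level. Lung and mammary values did not overlap for 6 of 12 probes, against 34.3% of all probes, with 3 higher in the lung, against 17.5% of all probes, and 3 lower, against 16.9%. The 3 higher include the second *Pdgfd* probe, whose reference was not well above background on any array.

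*Pdgfc* was 0.69 on average in the lung tumors and 1.81 ± 0.19 (SD, n = 3) in the mammary sarcomatoid tumors. The difference of -1.12 (SE 0.38, 95% confidence interval -1.96 to -0.28) is a lung level 0.459 times the mammary level, with an adjusted p of 0.363. The neighbouring probe gave -0.89 (adjusted p 0.456). The lung tumor was the lower of both pairs, with differences of -1.48 in tumor 323 and -0.89 in tumor 307. Both lung tumors were in scan batch 3 and no mammary sarcomatoid tumor was, so site and batch are tied within the sarcomatoid group. With the batch as a term, which rests on the adenocarcinomas, the difference was -1.69. Mammary tumor 323, alone in its batch, adds nothing to that value.

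The receptors stood higher in the lung member of each pair, without passing the test. *Pdgfra* was -3.81 in the mammary and -2.71 in the lung tumor numbered 323, and -2.95 and -0.76 in those numbered 307, differences of 1.1 and 2.19. *Pdgfrb* differed by 0.22 and 2.40. Because tumor 594, a mammary tumor with no lung partner, was high for both, the differences over the groups were smaller, 0.94 (SE 1.34, adjusted p 0.85) and 0.78 (SE 0.98, adjusted p 0.821). With the tumor number as a block over the 2 pairs, *Pdgfra* differed by 1.65 (adjusted p 0.276) and *Pdgfrb* by 1.31 (adjusted p 0.427). In that fit 3 of 12 member probes had an unadjusted p below 0.05, against 13.3% of all probes. They were the standing *Pdgfra* and *Pdgfc* probes and the second *Pdgfd* probe. With 2 pairs that fit leaves little to estimate the spread of a probe, so its p-values lean on the spread over all probes. Leaving out lung tumor 307 took the unpaired differences to -0.036 and -0.82, whose direction thus rested on that tumor, while the lung tumor of pair 323 was the higher for both receptors. As for *Pdgfc*, site and scan batch are tied here. With the batch as a term, which rests on the adenocarcinomas, *Pdgfra* differed by 3.82, and *Pdgfrb* kept its sign.

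The ligands of the lung tumors went several ways. The standing probe of *Pdgfa* was lower in the lung in both pairs, with differences of -0.27 in tumor 323 and -1.63 in tumor 307, and differed by -1.23 over the groups (SE 1.05, adjusted p 0.715). Its second probe differed by 0.077 in tumor 323 and by -1.59 in tumor 307, so the direction in tumor 323 depended on the probe. *Pdgfb* differed by -0.72 (SE 0.90, adjusted p 0.822), and its second probe by 0.012. *Pdgfd* differed by -0.41 (SE 0.96) with the standing probe. In the tumor channel alone the lung tumors were higher by 0.55 with that probe and by 0.70 with the second (adjusted p 0.860 and 0.855). The sign of the standing probe turned under 6 of 19 alternatives, including some that kept the reference channel. The cause of these turns was not tested.

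**Figure D4:**
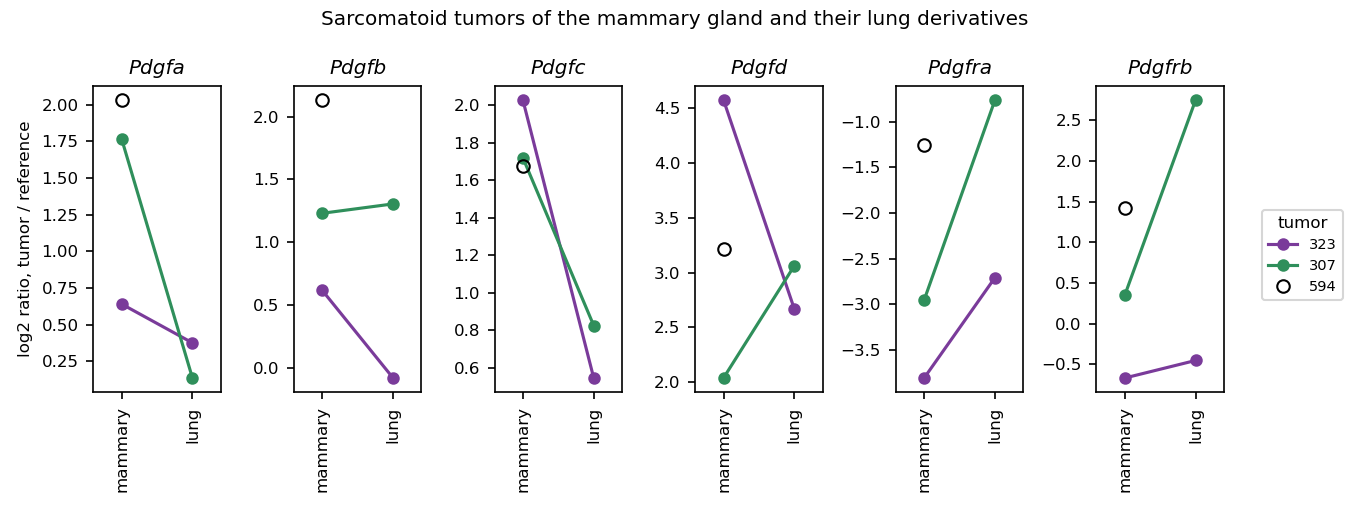
Log2 ratio of tumor over reference (vertical axis) of the standing probe of each PDGF gene in the mammary and lung tumors of numbers 323 and 307, joined by lines, and in mammary tumor 594, open circles. Each panel has its own scale. Pdgfc is lower in the lung in both pairs (-1.48 and -0.89), Pdgfra is higher in both (1.1 and 2.19), and Pdgfd goes opposite ways.

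Lung epithelial markers were dim on these arrays. Of 7 lung epithelial genes 0 were well above background on all arrays, and *Sftpc*, the surfactant gene that defines alveolar cells, was so on 4 of 10 arrays. The mean of this list was 0.58 in lung tumor 307, 0.39 in lung tumor 323 and 0.01 to 0.34 in the mammary sarcomatoid tumors. In the adenocarcinomas it was -0.12 to 0.77, and tumors 17 and 105, at 0.77 and 0.75, exceeded both lung tumors. Epithelial genes were lower in the lung than in the mammary sarcomatoid tumors for 10 of 10, with a median difference of -3.33 beside 0.026 over all probes. Of these, 5 were lower at an unadjusted p below 0.05, as were 5.1% of all probes. Smooth muscle genes were lower for 6 of 6, 3 of them at that level, with a median of -1.44. Their part in the PDGF differences was not tested.

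Mammary sarcomatoid tumors alone against the adenocarcinomas gave the remaining member difference. *Pdgfc* was higher by 0.87 (SE 0.30, 95% confidence interval 0.20 to 1.55), 1.83-fold, with an adjusted p of 0.556, and by 0.79 without tumor 470 (adjusted p 0.285). Each of the 3 mammary sarcomatoid tumors was above each of the 5 adenocarcinomas, 1.68 at the lowest against 1.47 at the highest. It was the 1 of 12 member probes at an unadjusted p below 0.05, where 8.6% of all probes were, and the 1 of 12 without overlap, where 5.83% were. Both shares are near those of all probes. The neighbouring probe gave 0.65 (adjusted p 0.591) and its groups overlapped.

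The genes that cut or hold PDGF ligands were read from a list of 7. Of these, 0 passed the adjusted threshold between sarcomatoid carcinoma and adenocarcinoma, 2 were higher and 1 lower at an unadjusted p below 0.05, where 9.23% of all probes were, and the median difference was 0.79 beside -0.0017 over all probes. *Plau*, the urokinase that can release active PDGF-D, was 0.93, 3.39, 0.89, 2.29 and 2.0 in mammary 323, lung 323, mammary 307, lung 307 and 594. In adenocarcinomas 105, 131, 470, 17 and 85 it was -1.06, -2.35, 0.90, -0.19 and -1.19. Tumor 470 alone among the adenocarcinomas reached the sarcomatoid range. The difference was 2.68 (SE 0.62, adjusted p 0.330), and 3.1 (adjusted p 0.0295) without tumor 470.

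*St14*, which encodes matriptase, another protease that cuts PDGF-D, ran opposite. It read 1.06, -2.66, 0.46, -2.44 and -0.32 in the sarcomatoid tumors in the same order, and 2.62, 2.15, -1.93, 2.23 and 2.15 in the adenocarcinomas. Lung tumors 323 and 307 and tumor 470 were the 3 lowest, which are also the 3 lowest for the epithelial list, and *St14* is itself a gene of epithelial cells. The difference was -2.22 (SE 0.95, adjusted p 0.510) between the groups and -2.95 (SE 1.12, adjusted p 0.403) between lung and mammary sarcomatoid tumors.

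*Nrp1*, a co-receptor for several heparin-binding growth factors, was 1.03, 0.34, 0.58, 1.87 and 1.08 in the sarcomatoid tumors and -0.04, -1.31, 0.42, -1.48 and -1.24 in the adenocarcinomas. Lung tumor 323, at 0.34, lay below tumor 470. The difference was 1.71 (SE 0.43, adjusted p 0.330), and 2.0 (adjusted p 0.0363) without tumor 470. *Plat*, the tissue plasminogen activator that cuts PDGF-C, differed by 0.47 (SE 0.73, adjusted p 0.892) and *Furin*, which cuts PDGF-A and PDGF-B, by -0.35 (SE 0.46, adjusted p 0.868). *Lrp1* differed by 0.97 (adjusted p 0.60) and *Sparc*, a matrix protein that binds PDGF-B, by 0.79 (adjusted p 0.702).

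Signaling genes downstream of the receptors went both ways. Of 28 genes 0 passed the adjusted threshold, 2 were higher and 6 lower at an unadjusted p below 0.05, where 9.23% of all probes were, and the median difference was 0.061. The list mean, in contrast to this median, was lower in the sarcomatoid group, 0.13 ± 0.06 against 0.24 ± 0.10 (SD, n = 5 each). The 6 lower genes differed by -1.28 to -0.81, with the transcription factor *Stat3* at -1.28 (SE 0.41, adjusted p 0.404) and the kinase *Yes1* at -1.06 (SE 0.35, adjusted p 0.405) among them. *Nck2*, an adaptor that docks on phosphorylated receptors, differed by -1.16 (SE 0.33, adjusted p 0.349) and by -1.39 (adjusted p 0.0496) without tumor 470. The 2 higher genes were the adaptor *Shc1* at 0.75 (SE 0.27) and the Src family kinase *Fyn* at 0.85 (SE 0.31).

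Early response genes, which growth factors including PDGF switch on within a short time, had 0 of 15 past the adjusted threshold. Their median difference was -0.044. At an unadjusted p below 0.05, 1 was higher and 1 lower, against 9.23% of all probes. *Ccl2*, a monocyte chemokine known as a PDGF-induced gene, was higher by 2.69 (SE 0.65, adjusted p 0.330) and by 3.23 (adjusted p 0.0215) without tumor 470. Its sarcomatoid values were 0.67 to 1.89. In 4 adenocarcinomas it was -0.12 or below, and in tumor 470 it was 0.82. *Ier3*, another early gene, differed by -1.71 (SE 0.61, adjusted p 0.437).

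The receptors closest in kinship to PDGF receptors, the other class III receptor tyrosine kinases with their ligands, held 7 genes. Of these, 0 passed the adjusted threshold. At an unadjusted p below 0.05, 3 were higher and 0 lower, against 9.23% of all probes. *Csf1r*, the macrophage colony-stimulating factor receptor, differed by 1.71 (SE 0.47, adjusted p 0.346), and its ligands *Csf1* and *Il34* by 1.32 (SE 0.43) and 1.78 (SE 0.58), both with an adjusted p of 0.405. The mean of 8 macrophage genes was 3.44 ± 0.31 in the sarcomatoid and 2.34 ± 0.83 in the adenocarcinoma group, ranging from 3.11 to 3.87 and from 1.27 to 3.46, and its part in the *Csf1r* and *Ccl2* differences was not tested. *Kit* was 2.11 and 3.09 in the lung tumors and 5.03 to 5.20 in the mammary sarcomatoid tumors, a difference of -2.52 (SE 0.52, adjusted p 0.190).

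The vascular endothelial growth factors, which share the cystine knot fold of the PDGFs, had 0 of 8 genes past the adjusted threshold and a median difference of -0.25. At an unadjusted p below 0.05, 1 was higher and 2 lower, against 9.23% of all probes. *Vegfd*, a lymphatic growth factor, differed by 1.5 (SE 0.60, adjusted p 0.480), *Pgf* by -1.22 (SE 0.51, adjusted p 0.501) and *Vegfa* by -0.81 (SE 0.34, adjusted p 0.50). Over all 15 lists, which hold 140 genes, 0 genes passed the adjusted threshold with all 10 tumors. Without tumor 470, 11 did, where 1.54% of all probes passed. Tumor 470 was singled out by its low epithelial list, so the passing of epithelial markers without it is no separate finding. Of the 11, *Plau*, *Nrp1*, *Nck2* and *Ccl2* are pathway genes and the rest are 1 fibroblast, 4 epithelial and 2 macrophage markers.

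**Figure D5:**
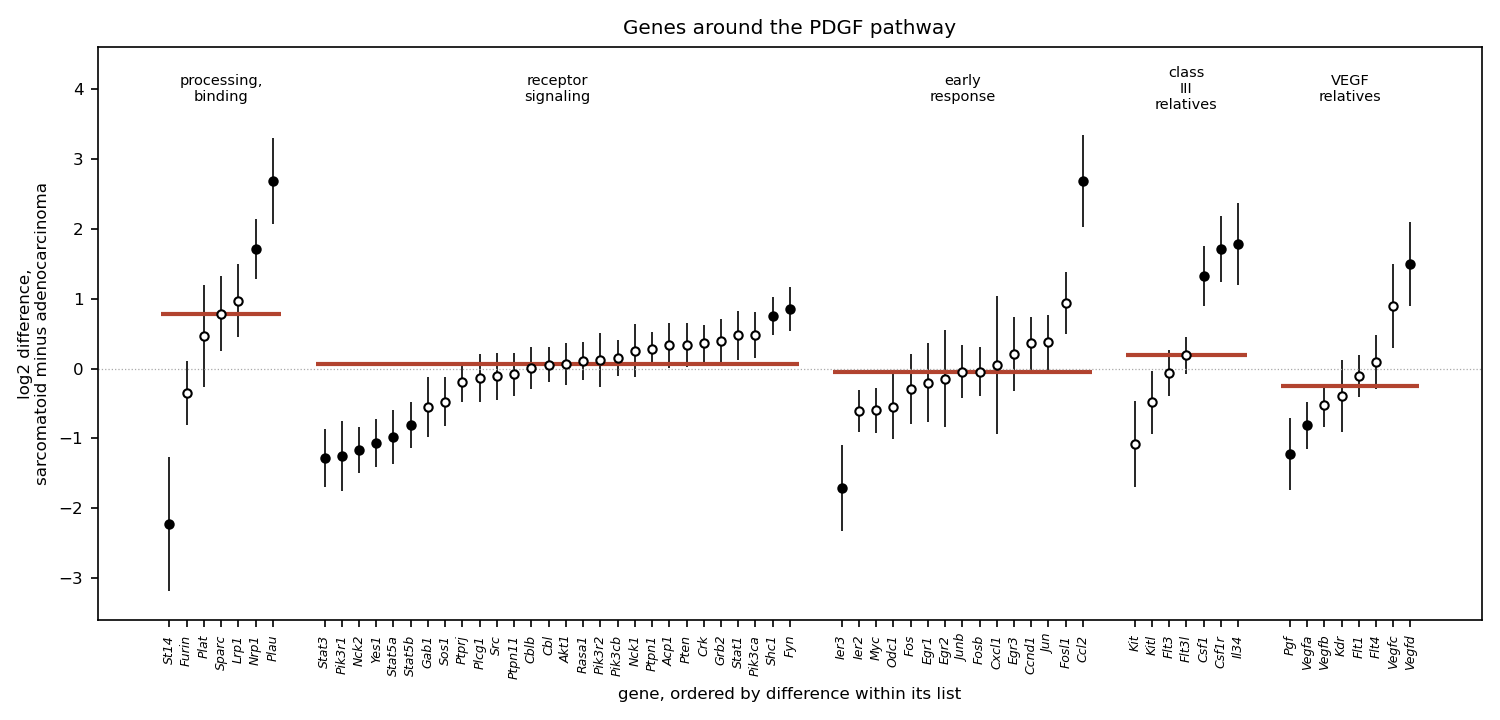
Log2 difference, sarcomatoid minus adenocarcinoma (vertical axis), of every gene of 5 lists around the PDGF pathway (horizontal axis, ordered by difference within a list), with bars of 1 SE from limma. Filled points have an unadjusted p below 0.05, red lines are list medians, and no point passed the adjusted threshold. Plau at 2.68 and Ccl2 at 2.69 stand highest and St14 at -2.22 lowest.

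The remaining marker lists describe what else the tumor pieces held. Fibroblast genes were higher in the sarcomatoid group for 10 of 10 genes with a median of 0.82, and 0 of them had an unadjusted p below 0.05. Pericyte genes had a median of -0.20, smooth muscle genes -0.66, endothelial genes 0.14, platelet genes 0.30 and fat cell genes -0.22. Platelets carry PDGF protein, and *Pf4*, a gene of the platelet list, ranged from -2.67 to 1.41 in the sarcomatoid group and from -2.72 to 1.94 in the adenocarcinomas. Of the 6 platelet genes, 4 were higher and 2 lower in the sarcomatoid group, and 3 were well above background on all arrays. Lung epithelium had a median of -0.014 and skeletal muscle of -0.90. Epithelial genes were lower for 10 of 10 genes with a median of -2.29, and 4 of them had an unadjusted p below 0.05. Macrophage genes were higher for 8 of 8 with a median of 1.36, and 5 of them had an unadjusted p below 0.05. Over all probes 9.23% were at that level and 49.8% were higher in the sarcomatoid group.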

How the data were processed

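The 10 tumors, 5 sarcomatoid and 5 adenocarcinoma per the labels, were measured on 1 two-colour Agilent array each. The authors deposited a normalized table of log2 ratios, which their methods say was made with limma, without the steps or centring, and this table gave all main values (column medians -0.0515 to 0.0669). They also deposited scanner files with spot intensity and a log10 ratio per spot. These gave the well-above-background flags and the alternatives. Spots of a probe were averaged. Of 41174 probes on the array 40196 were in the table, and the others were not used here.

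Probes were named by accession (22690), symbol (6433) or synonym (3033) against the gene table of assembly GRCm38.p6, and 8040 stayed unnamed. Probe positions are those of build mm7 in the scanner files. Tests used limma 3.58.1 in R 4.3.3, two-sided, with Benjamini-Hochberg adjustment over all probes and a threshold of 0.05, with group as the only term, or with 3 groups (lung sarcomatoid, mammary sarcomatoid, adenocarcinoma) for comparisons by site. The fits were tested on simulated data. Single probes also had an exact permutation test. All members were named with every probe, as were the 3 genes most like each member and, from each list, every gene past the threshold and at most 5 others with the smallest unadjusted p. *Plat*, *Furin* and the genes that define a marker list were named outside this rule for their known roles. The members, lists and rules were chosen with earlier results of these data known. Alternatives were other normalizations, a filter on dim probes, scan batch and slide, leaving out each tumor, tumor number as a block and, added after seeing the data, the tumor channel alone. The tumor channel alone is its log2 signal less the upper quartile of the array. Nothing says which samples are separate RNA preparations beyond their being separate tumors, so p-values measure the spread between these tumors, and 2 pairs share an origin. The number of arrays limits the precision. Probe sequences were not used here.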

Additional observations from a re-analysis of the deposited data

Results flagged for a closer look

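The standing probes of *Pdgfb* and *Pdgfd* had differences of opposite sign in the lung tumors of the 2 origins, and the difference between origins was not tested, since each has 1 lung and 1 mammary array. For *Pdgfb* the lung tumor minus the mammary tumor was -0.70 log2 units for number 323 and 0.075 for number 307. The second *Pdgfb* probe was higher in the lung in both, by 0.17 and 0.27. In the tumor channel alone, less the upper quartile of each array, the standing probe was -3.37 in mammary and -2.62 in lung tumor 323. It was -0.93 and -0.98 in those of number 307, so both signs turned. Without that centring the log2 signals were 7.37 and 7.45 for number 323, and 9.82 and 9.24 for number 307. For *Pdgfd* it was -1.91 for number 323 and 1.02 for number 307. In the tumor channel alone, centred in the same way, *Pdgfd* was -0.98 in mammary and -1.60 in lung tumor 323. It was -2.70 and -0.85 in those of number 307, which kept both signs. The reference channel of the second *Pdgfd* probe was well above background on 0 of 10 arrays, and its differences are not read. Mammary tumor 323 was the only array of scan batch 1, and the part of the batch in these values was not tested. Single tumors far from the rest of their group were looked for in 24 combinations of probe and group, where chance gives about 1.2, and 0 were found.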

How the results depend on the processing

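Of all alternatives run, none brought a member probe past the adjusted threshold in any of the 3 comparisons, by limma or, between sarcomatoid and adenocarcinoma, by the exact permutation test. Directions were less stable, and the cause of each turn was not tested. All differences below are on the log2 scale.

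Sarcomatoid minus adenocarcinoma: *Pdgfb* A_51_P175262 turned to 0.12 with scan batch as a term and 0.038 with slide as a random block. *Pdgfc* A_52_P408629, near background, turned to -0.017 with the scanner software's log ratio, -0.058 in mammary tumors only and -1.32 in the tumor channel alone. Within scan batch 2 the values were 0.62 and 0.50 for the *Pdgfb* probes A_51_P175262 and A_52_P618427, -0.22 and -0.90 for the *Pdgfd* probes A_52_P264790 and A_52_P636948, and -0.57 and -0.082 for the *Pdgfra* probes. Within scan batch 3 they were -0.49 and -0.52 for the *Pdgfc* probes A_51_P333839 and A_52_P376360.

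Lung minus mammary sarcomatoid: *Pdgfb* A_51_P175262 became -0.16 with loess of the scanner intensities, -0.20 with median centring, -0.92 with scan batch, -0.023 with slide and -0.30 in the tumor channel alone. *Pdgfd* A_52_P636948 became 0.049, 0.18, 2.03 and 0.55 with loess, median centring, scan batch and the tumor channel, and 0.039 with the scanner software's log ratio. *Pdgfc* A_52_P408629 became -0.18 with that log ratio and -0.24 with scan batch. Mammary tumor 323, alone in batch 1, adds nothing to a difference fitted with scan batch as a term. Mammary sarcomatoid minus adenocarcinoma with that term is the difference within batch 2 and not a separate alternative. It turned for the standing probes of *Pdgfb* (0.50), *Pdgfd* (-0.90) and *Pdgfra* (-0.57).

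Leaving out each tumor in turn gave ranges that crossed 0. Between sarcomatoid and adenocarcinoma these were -0.29 to 0.79 and -0.081 to 0.92 for the *Pdgfa* probes, -0.34 to 0.30 for *Pdgfb* A_51_P175262 and -0.049 to 0.44 for *Pdgfc* A_52_P408629. Between lung and mammary sarcomatoid they were -0.78 to 0.80 for *Pdgfb* A_51_P175262, -1.03 to 0.24 for *Pdgfd* A_52_P636948, -0.036 to 1.91 for *Pdgfra* and -0.82 to 2.38 for *Pdgfrb*. Between mammary sarcomatoid and adenocarcinoma they were -0.60 to 0.25 for *Pdgfb* A_52_P618427 and -0.10 to 0.94 for *Pdgfrb*. Over all probes, 618 passed the adjusted threshold between sarcomatoid and adenocarcinoma without tumor 470, 2 with 1 value per tumor number, 1 with median centring and 0 with all tumors and otherwise. Between lung and mammary sarcomatoid 10 passed, and 0 to 84 under the alternatives, the most without tumor 470. Between mammary sarcomatoid and adenocarcinoma 0 passed, and 210 without tumor 470.

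With the tumor number as a random replicate block the *Pdgfra* difference between sarcomatoid and adenocarcinoma was 1.30, and 0 member probes passed, as they did with the block over the 2 pairs of lung and mammary tumors. Replicate numbers follow deposit order and pair nothing. Among the lists, the signaling median became -0.097 with median centring and the class III receptor median 0.43 with the scanner software's log ratio.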
